A study of Mus musculus with 4 samples.

Results

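The Notch pathway genes described here are 4 receptor genes (Notch1, Notch2, Notch3 and Notch4), 3 ligand genes (Jag1, Jag2 and Dll1) and 3 target genes (Hes1, Hey1 and Hey2), chosen by name for their place in the pathway, with earlier results of these data known. All 10 were found among the 17712 genes of the deposited table, and all 10 passed the filter on low values. They were measured by RNA sequencing in forelimbs of Shh null mouse embryos (2 libraries) and of their wild-type littermates (2 libraries). Embryos of both groups were of the outbred Swiss Webster stock and had 33 to 35 somites; their stage is E10.5 in the source label and E10.25 in the age label. Shh encodes Sonic hedgehog, the signal made by posterior limb bud cells. The labels do not describe the null allele, the number of embryos behind a library or their sex, and the replicates are called technical in the design text. The p-values below therefore reflect only how far these libraries spread.

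Notch signalling passes between touching cells. A ligand of the Jagged or Delta-like family on a neighbouring cell binds a Notch receptor, proteases then cut the receptor, and its freed intracellular domain joins the DNA-binding protein RBPJ in the nucleus to switch on genes of the Hes and Hey families. These targets encode basic helix-loop-helix repressors that hold back differentiation in many tissues. In the limb bud the pathway is best known from the apical ectodermal ridge, where mouse embryos without Jag2 form an overgrown ridge and fused digits, and from the growing blood vessels.

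The libraries held 18456502 to 29620468 reads assigned to genes, so that 1 read was worth 0.0351 to 0.0551 CPM (reads scaled to library size), and a count of 0 allowed a level of up to 0.105 to 0.165 CPM (3 reads). Shh itself was at 3.15 and 2.42 CPM in Shh null, against 11.4 and 7.88 CPM in wild type, in the direction of the labels. Genes on the sex chromosomes also separated the groups. The Y-linked gene Ddx3y was at 39.1 and 42.3 CPM in Shh null, against 119 and 106 CPM in wild type, and Xist, which is transcribed from the inactive X chromosome, at 522 and 468 CPM, against 225 and 152 CPM. The genotypes and the sex of the embryos cannot be told apart in this design. The 7 erythroid genes summed to 3736 and 6343 CPM in Shh null and to 11005 and 2946 CPM in wild type, and so differed widely between libraries of the same genotype.

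A ligand gene and a target gene fell in the Shh null forelimbs, and another ligand gene rose. Hey1 fell 2.49-fold and Jag1 1.81-fold, while Jag2 rose 1.48-fold. The other 7 genes did not pass the test, which fitted log2(CPM + 1) over all 13224 tested genes with limma and called genes at a Benjamini-Hochberg adjusted p under 0.05. Of all tested genes 2.48% were called, 1.24% higher and 1.24% lower, against 1 higher and 2 lower of the 10 Notch pathway genes. The libraries of the groups did not overlap for 9 of the 10 genes, 5 higher and 4 lower in Shh null, which 50.2% of all tested genes also showed (25.1% higher and 25% lower). On the recovered reads edgeR called the same 3 genes (2.45% of all genes called), and DESeq2 called 5, Hes1 and Notch1 besides (3.98% of all genes). The authors' deposited table also holds those 5 at an FDR under 0.05 (4.01% of its genes). The median log2 fold change of the 10 genes was 0.16, beside -0.0005 over all tested genes. In bulk tissue, fewer cells that express a gene and less RNA per cell cannot be told apart.

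**Figure D1:**
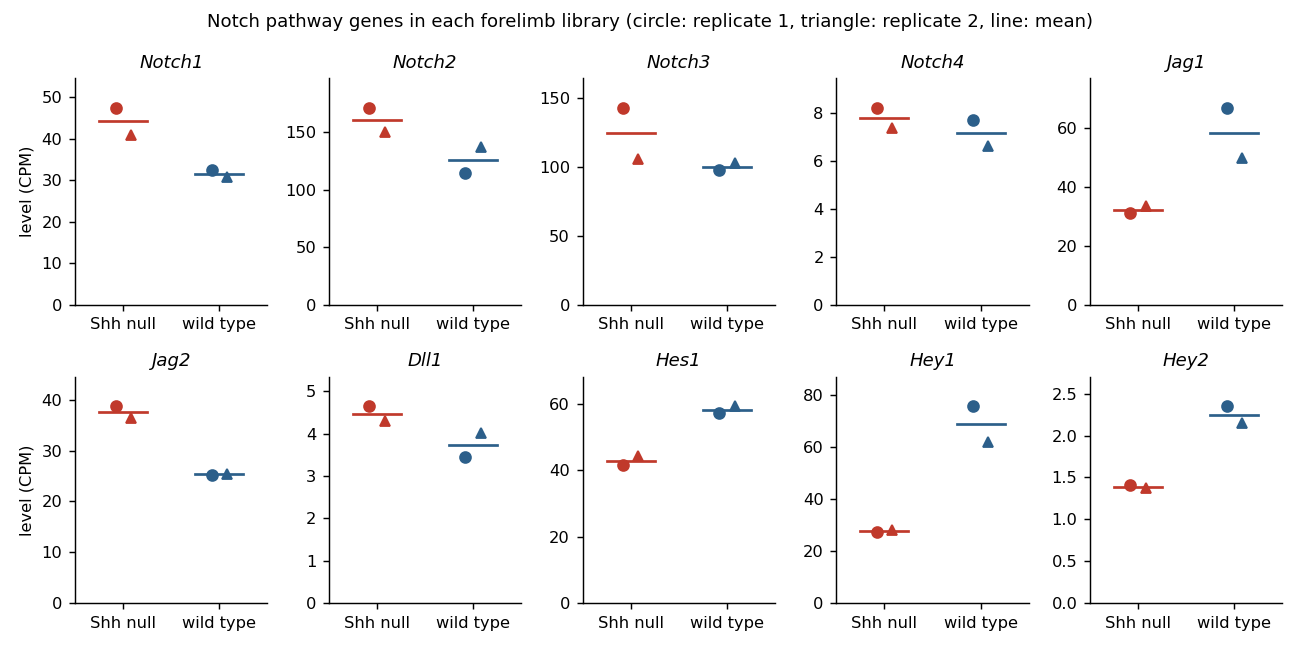
Level of each of the 10 genes in CPM (vertical axis, from 0, a separate scale for each gene) in the 2 Shh null and the 2 wild-type forelimb libraries, with circles for replicate 1, triangles for replicate 2 and lines for group means. Jag1, Hes1, Hey1 and Hey2 lie lower in both Shh null libraries, Jag2 and Notch1 lie higher, and the groups overlap for Notch4 only.

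The target genes lay lower in the Shh null libraries. Hey1 (chromosome 3, 8663359 to 8667256, minus strand, mm10), a repressor gene with roles in vessels, heart and somites, was at 27.2 and 28.2 CPM in Shh null, against 75.8 and 62.2 CPM in wild type. The Shh null libraries lay close together, and the gap of 34.0 CPM between the groups exceeded the widest gap of 13.6 CPM within a group. Hey1 averaged 27.7 ± 0.659 CPM in Shh null and 69.0 ± 9.62 CPM in wild type (SD, n = 2 each), a log2 fold change of -1.28 ± 0.12 (SE; limma, adjusted p = 0.000765). Its change was larger than that of 99.6% of the tested genes. Because 1 CPM is added before the logarithm, log2 fold changes here understate what happened to scarce genes.

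Hes1 (chromosome 16, 30064384 to 30067796, plus strand), the most widely used readout of Notch signalling, was at 41.6 and 44.3 CPM in Shh null, against 57.2 and 59.3 CPM in wild type. The libraries of a group lay within 2.73 CPM of each other and the groups were 12.9 CPM apart. The log2 fold change of -0.43 ± 0.11 (95% interval -0.67 to -0.20) nevertheless did not pass the limma test (adjusted p = 0.068). DESeq2 on the recovered reads called Hes1 lower (adjusted p = 0.0421), and so did the authors' deposited table (FDR = 0.0376, log2 fold change -0.44).

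Hey2 (chromosome 10, 30832359 to 30842801, minus strand), known for its part in arterial and heart development, was scarce. It gave 34 and 30 reads in Shh null, against 67 and 39 reads in wild type, or 1.41 and 1.37 CPM against 2.35 and 2.15 CPM. The groups did not overlap, but the gene was not called (log2 fold change -0.44 ± 0.18 SE, limma adjusted p = 0.242). At this level the pseudocount weighs on the value. Tested by edgeR on the reads, the log2 fold change was -0.69 and Hey2 was not called either (adjusted p = 0.249).

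Promoter sequence is shown for Hey2, whose 2 matches to the RBPJ motif lie close to its start, and for Jag1, the ligand gene with the larger change, which like Jag2 has none in its window. Promoter windows with 250 bases before and 50 after the RefSeq start (GRCm38.p6) were found for 8 of the 10 genes (9 windows, with 2 starts for Dll1); for Hes1 and Hey1 none were used. On both strands, the motif GTGGGAA bound by RBPJ was found in 1 of these 9 windows, that of Hey2, and in 6.38% of all 32851 promoter windows. The shorter core TGGGAA, which overlaps it, was found in the Hey2 window at the same 2 places and in 25.6% of all windows. The GLI motif GACCACCCA, bound by the transcription factors of the hedgehog pathway, was found in 0 of the 9 windows and in 0.253% of all windows, and the E-box CACGTG in 0 of the 9 and in 7.15%. A match describes letters and not a bound site, and no match says only that these letters are not in these windows. The sequences run 5′ to 3′ on the minus strand, on which both genes lie. Capitals mark GTGGGAA or its reverse complement. The upstream stretches end before the starts of both RefSeq and GENCODE.
Hey2 upstream, chr10:30842802-30843033: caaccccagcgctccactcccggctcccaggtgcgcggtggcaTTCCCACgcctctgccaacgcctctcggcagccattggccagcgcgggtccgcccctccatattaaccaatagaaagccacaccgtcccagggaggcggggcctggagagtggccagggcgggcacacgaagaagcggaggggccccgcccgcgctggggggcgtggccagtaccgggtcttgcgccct
Hey2 at the start, chr10:30842774-30842794: ctgcagcGTGGGAAagaacct
Jag1 upstream, chr2:137116645-137116770: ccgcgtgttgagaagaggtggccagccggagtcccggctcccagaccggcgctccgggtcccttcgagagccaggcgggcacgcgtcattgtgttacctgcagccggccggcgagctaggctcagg
The first Hey2 match begins 207 bases before the RefSeq start on the opposite strand, and the other begins 4 bases before it and runs across it. By GENCODE, whose Hey2 gene begins at 30842801 on this strand, that second match lies inside the gene. The 250 bases before the start of Jag1 held 57.2% G and C, those of Hey2 71.6% and those of Jag2 87.2%, beside a median of 52.4% over all promoters.

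The Jagged ligand genes moved in opposite directions. Jag1 (chromosome 2, 137081456 to 137116644, minus strand), which in the limb bud is known from the distal mesenchyme, was at 30.9 and 33.3 CPM in Shh null, against 66.7 and 49.7 CPM in wild type. Both Shh null libraries lay below both wild-type libraries, by at least 16.4 CPM, and the wild-type libraries differed by 17.0 CPM, 7.54 times the SD expected from counting alone. The log2 fold change was -0.82 ± 0.14 (SE; limma, adjusted p = 0.0185), from means of 32.1 ± 1.67 CPM in Shh null and 58.2 ± 12.0 CPM in wild type (SD, n = 2 each). The Jag1 call ended without Shh null 1 (log2 fold change -0.77, adjusted p = 0.23), without Shh null 2 (-0.88, adjusted p = 0.0981) and with no filter on low values (-0.82, adjusted p = 0.0502).

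Jag2 (chromosome 12, 112907819 to 112929776, minus strand), the ligand gene of the apical ectodermal ridge, was at 38.8 and 36.5 CPM in Shh null, against 25.3 and 25.5 CPM in wild type. The libraries within each group nearly coincided, and the groups were 11.0 CPM apart. The log2 fold change was 0.55 ± 0.12 (SE; limma, adjusted p = 0.0392), with means of 37.6 ± 1.61 CPM in Shh null and 25.4 ± 0.144 CPM in wild type (SD, n = 2 each). Its adjusted p lay near the threshold and the call ended without Shh null 1 (0.306), without Shh null 2 (0.115), without wild type 1 (0.0526), with quantile normalization (0.0532) and with no filter (0.0698), though the log2 fold change stayed between 0.51 and 0.59 over all 12 alternatives. Without either Shh null library the number of calls over all genes also became smaller, 56 without Shh null 1 and 99 without Shh null 2, against 328.

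Dll1 (chromosome 17, 15367354 to 15376872, minus strand), a Delta-like ligand gene best known from somites and nerve precursors, was low, at 4.64 and 4.30 CPM in Shh null, against 3.44 and 4.02 CPM in wild type. The groups were only 0.278 CPM apart, less than the gap of 0.582 CPM between the wild-type libraries, and Dll1 was not called (log2 fold change 0.21 ± 0.17 SE, limma adjusted p = 0.555; 95% interval -0.18 to 0.60).

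Among the 3 ligand genes, the shares of Jag1 and of Jag2 did not overlap between the genotypes. Per kb of exon, Jag1 made up 44.3% and 47.7% of the summed level of the 3 ligand genes in the Shh null libraries, against 72.0% and 64.9% in the wild-type libraries. Jag2 made up 46.5% and 43.8%, against 22.9% and 27.9%. These are not shares of all ligand transcripts, as the ligand gene Dll4, for example, is not in the sum. Dll4 averaged 8.78 ± 0.393 CPM in Shh null and 8.77 ± 2.08 CPM in wild type (SD, n = 2 each). Its log2 fold change was 0.02 (limma adjusted p = 0.974). The ratio of Jag1 to Jag2 per kb was 0.954 and 1.09 in the Shh null libraries, against 3.15 and 2.33 in the wild-type libraries; with the length of the longest transcript in place of the union of exons it was 0.726 and 0.830, against 2.40 and 1.77. The groups could not overlap in this ratio, as Jag1 lay lower and Jag2 higher in both Shh null libraries. For the same reason an exact permutation test of 2 against 2 libraries had to give p = 0.333 (two-sided), the smallest this design allows. The ratio thus restates the differences of the 2 genes and adds no separate result.

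**Figure D2:**
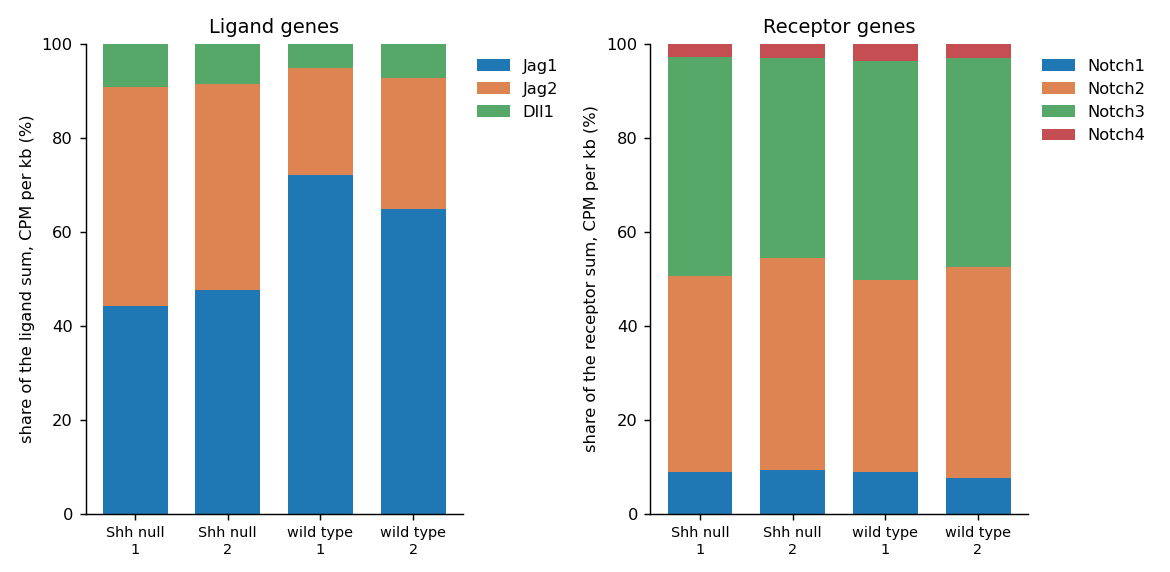
Share (%) of each gene in the summed level, as CPM per kb of exon, of the 3 ligand genes (left) and the 4 receptor genes (right) in each library, Shh null 1 and 2 followed by wild type 1 and 2. Jag1 makes up 44.3% and 47.7% of the ligand sum in Shh null and 72.0% and 64.9% in wild type, whereas each receptor gene keeps a similar share in the 4 libraries.

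No receptor gene was called by limma or edgeR, and DESeq2 called 1. Annotated genes on the opposite strand overlap Notch1, Notch3, Notch4 and the ligand gene Dll1, and without a stated strand setting their reads cannot be told apart. On the same strand, annotated genes overlap Notch1 (Mir6996), Notch2 (Gm42819 and Gm42820) and the ligand gene Jag2 (Mir6941). A strand setting could not separate those. The log2 fold changes of all 4 receptor genes were above 0 under all 12 alternatives. For Notch1, Notch2 and Notch3, whose groups did not overlap, leaving out a library could not change this. Notch1 (chromosome 2, 26457903 to 26516663, minus strand), a receptor gene of the ectoderm and of vessels in the limb bud, was at 47.4 and 40.9 CPM in Shh null, against 32.4 and 30.8 CPM in wild type. The groups were 8.54 CPM apart, more than the 6.51 CPM between the Shh null libraries. The log2 fold change of 0.47 ± 0.12 (SE; 95% interval 0.20 to 0.74) did not pass the limma test (adjusted p = 0.077), whereas DESeq2 (0.047) and the authors' deposited table (FDR = 0.0391) called Notch1 higher.

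Notch2 and Notch3 were the abundant receptor genes. Notch2 (chromosome 3, 98013527 to 98150361, plus strand) was at 171 and 150.2 CPM in Shh null, against 114 and 137 CPM in wild type (log2 fold change 0.35 ± 0.12 SE, limma adjusted p = 0.153). The groups did not overlap, but the 23.0 CPM between the wild-type libraries was wider than the 12.7 CPM between the groups. The log2 fold change depended on the wild-type library used: it was 0.48 with wild type 2 left out, past the limma threshold (adjusted p = 0.0276), and 0.22 with wild type 1 left out (0.519). Notch3 (chromosome 17, 32120820 to 32166852, minus strand), best known from the smooth muscle of arteries, was at 143 and 106 CPM, against 97.5 and 103 CPM (log2 fold change 0.30 ± 0.14 SE, adjusted p = 0.278). Its difference rested on 1 library: its log2 fold change became 0.08 with Shh null 1 left out and 0.51 with Shh null 2 left out, and the gap between the Shh null libraries was 11.2 times the SD expected from counting.

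Notch4 (chromosome 17, 34564268 to 34588503, plus strand), a receptor gene of the endothelium, was the least abundant receptor gene, at 8.21 and 7.37 CPM in Shh null, against 7.72 and 6.61 CPM in wild type. The groups overlapped (log2 fold change 0.11 ± 0.16 SE, limma adjusted p = 0.771; 95% interval -0.26 to 0.47). The receptor genes kept similar shares of their summed level per kb. Notch3 took 46.6% and 42.5% in Shh null, against 46.5% and 44.7% in wild type, and Notch2 took 41.9% and 45.2%, against 41.0% and 44.8%. The sum itself was 37.9 and 30.8 CPM per kb in Shh null, against 25.9 and 28.4 CPM per kb in wild type. An exact permutation test gave p = 0.333 (two-sided), the smallest this design allows.

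**Figure D3:**
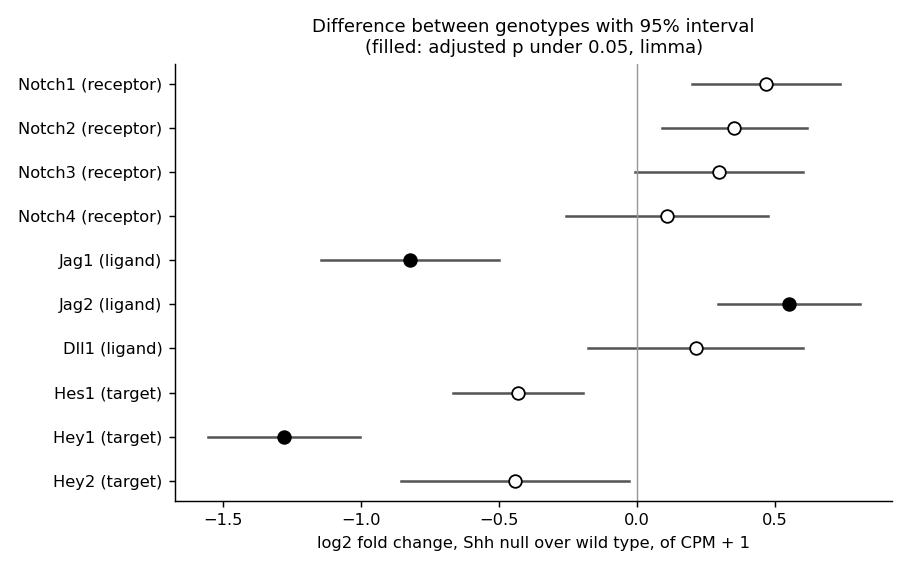
Log2 fold change of Shh null over wild type (horizontal axis, log2(CPM + 1) scale) of each of the 10 genes, with 95% intervals from limma; filled points passed an adjusted p of 0.05. The 3 filled points are Jag1 at -0.82, Jag2 at 0.55 and Hey1 at -1.28, the 4 receptor genes lie right of 0 and the 3 target genes left of it.

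Levels of different genes were compared per kb of exon. In wild type, Hes1 was the highest of the 10 genes at 28.6 ± 0.727 CPM per kb, above Hey1 at 21.1 ± 2.95 CPM per kb (SD, n = 2), and then came Notch3, Notch2, Jag1, Jag2, Notch1, Notch4, Dll1 and Hey2, the last at 0.490 ± 0.0312 CPM per kb. The levels of the neighbours Notch3 and Notch2, Notch2 and Jag1, and Notch4 and Dll1 overlapped between libraries. In Shh null Hes1 remained the highest at 21.1 ± 0.948 CPM per kb and Hey2 the lowest at 0.303 ± 0.0058 CPM per kb, but Hey1, at 8.49 ± 0.202 CPM per kb, took the fourth place, below Notch3 and Notch2. There, Notch3 overlapped with Notch2, and Jag1 with Jag2. The order of Jag1 and Jag2 in Shh null depended on the length used. Per kb of the longest transcript, Jag2 (7.59 and 7.15 CPM per kb) lay above Jag1 (5.51 and 5.93 CPM per kb). The Hey1 level lay above that of 59.3% of the tested genes in Shh null and above that of 80.3% in wild type. The ratio of Hey1 to Hes1 per kb was 0.409 and 0.397 in Shh null, against 0.826 and 0.654 in wild type, so Hey1 lay below Hes1 in each library.

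No further gene of the pathway was called by limma. The list held 59 further genes, sorted by role; 57 were in the table and 51 were tested. Of these 51, limma called 0, 4 were higher and 2 lower at an unadjusted p under 0.05 (18.5% of all tested genes in either direction), edgeR called 0, and DESeq2 called 1 higher and 1 lower. The median log2 fold change was 0.03, with 32 genes above 0 and 19 below. Among the 18 tested genes of the nuclear complex and co-repressors, Rbpj, the DNA-binding partner of the Notch intracellular domain, was at 100.4 and 103 CPM in Shh null, against 93.2 and 105 CPM in wild type (log2 fold change 0.04 ± 0.10 SE; limma adjusted p = 0.881); it is named after its value was seen. The largest difference of that list was that of Tle2, a Groucho-type co-repressor gene, at 8.38 ± 1.82 CPM in Shh null and 5.78 ± 0.935 CPM in wild type (SD, n = 2 each; adjusted p = 0.238). The gene DESeq2 called lower was Tle4, of the same family, at 59.1 and 57.9 CPM, against 84.8 and 72.5 CPM (log2 fold change -0.42, limma adjusted p = 0.0852).

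Among the genes acting on the ligands, Mib2, which encodes a ubiquitin ligase for ligand uptake, was at 35.8 and 32.6 CPM in Shh null, against 24.8 and 22.9 CPM in wild type. Its log2 fold change of 0.50 ± 0.12 (SE) did not pass in limma (adjusted p = 0.068) and passed in DESeq2 (0.0403). The other 2 tested genes of the 3 in that list were not called. Of the other ligand genes 2 of 5 were tested, and Dlk1 had the larger difference, at 13.2 ± 1.65 CPM in Shh null and 17.6 ± 3.97 CPM in wild type (SD, n = 2 each; limma adjusted p = 0.281).

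Genes that process or remove the receptor were not called. None of 6 genes listed for glycosylation, 9 for cleavage and 10 for turnover was called by limma, edgeR or DESeq2. In limma 1 of each list was at an unadjusted p under 0.05. The median log2 fold changes of these lists were -0.0001, 0.02 and 0.05. The glycosylation list also holds Furin, a protease gene. The largest differences were those of Poglut1, a glycosyltransferase gene of the receptor (log2 fold change -0.22, adjusted p = 0.265), Aph1c, a subunit gene of the gamma-secretase complex (0.47, adjusted p = 0.247, at 2.78 and 2.29 CPM in Shh null, against 1.30 and 1.82 CPM in wild type), and Dtx3, a Deltex-family gene (0.34, adjusted p = 0.156).

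The 3 tested genes among the other Hes and Hey genes and feedback targets (7 on the list, 5 in the table) had log2 fold changes below 0, with a median of -0.28. None was called by limma, edgeR or DESeq2, and limma found 0 at an unadjusted p under 0.05. On the log2(CPM + 1) scale Nrarp, a feedback inhibitor of Notch signalling, had the largest difference (limma adjusted p = 0.374). Nrarp was at 21.0 and 22.3 CPM in Shh null, against 31.1 and 22.6 CPM in wild type. Its Shh null libraries lay near wild type 2. The log2 fold change was -0.281 for Nrarp and -0.277 for the scarce Heyl. In mean CPM the change was larger for Heyl, -30.6% against -19.3% for Nrarp.

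**Figure D4:**
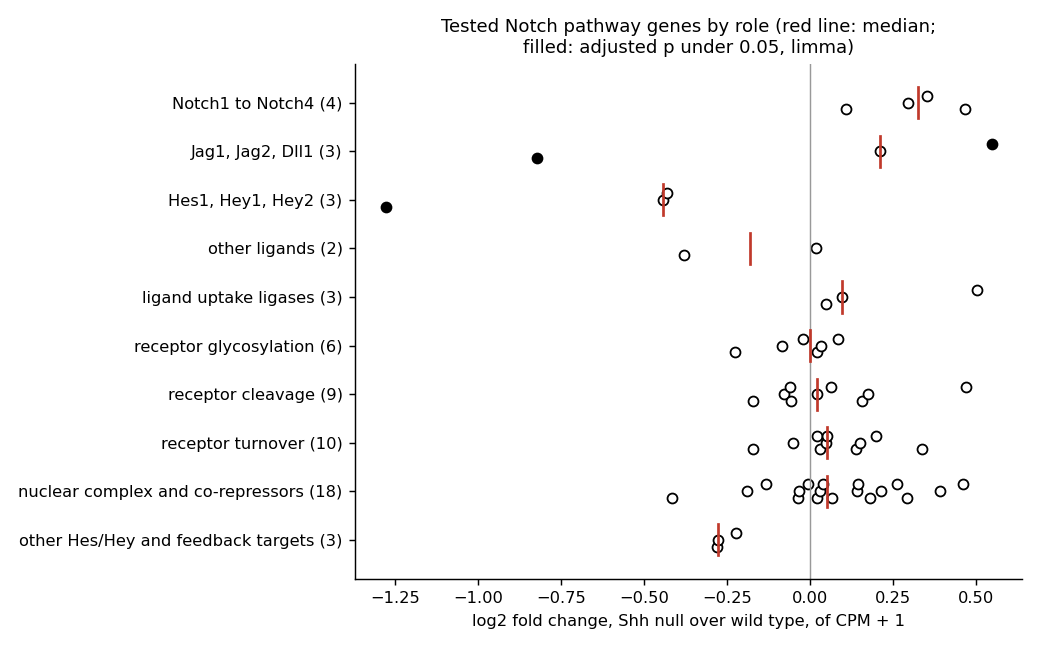
Log2 fold change of Shh null over wild type (horizontal axis, log2(CPM + 1) scale) of the 10 Notch pathway genes in 3 rows by role and of the 51 further tested genes in 7 rows; the number of genes stands in brackets, red lines are medians and filled points passed an adjusted p of 0.05 in limma. The 3 filled points are Hey1, Jag1 and Jag2, and no further gene is filled.

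Markers of the cell types that use these genes were set beside them. The endothelial list, which bears on Notch4, Hey1 and Hey2, summed to 319 and 318 CPM in Shh null and to 268 and 338 CPM in wild type. Of its 14 tested genes 0 were called by limma, edgeR or DESeq2, with limma finding 0 at an unadjusted p under 0.05, and the median log2 fold change was 0.08. Pecam1, Cdh5 and Kdr were at 37.8 ± 0.516, 35.0 ± 1.95 and 57.9 ± 2.66 CPM in Shh null and at 41.2 ± 8.05, 35.4 ± 6.43 and 56.1 ± 16.5 CPM in wild type (SD, n = 2 each). Of 6 arterial genes 0 were called by the same tools, limma found 3 higher at an unadjusted p under 0.05, and the sums were 335 and 309 CPM against 277 and 302 CPM. Those 3 were Efnb2, Cxcr4 and Unc5b, with log2 fold changes of 0.45, 0.40 and 0.32 (limma adjusted p = 0.138, 0.269 and 0.156). The other 3, Gja4, Gja5 and Nrp1, had log2 fold changes below 0 (-0.11, -0.14 and -0.01). The largest part of the arterial sum came from Nrp1, at 156 and 155 CPM in Shh null, against 150 and 163 CPM in wild type. Of 4 tested mural genes, of 7 on the list, 0 were called, 1 was higher at an unadjusted p under 0.05, and the sums were 152 and 126 CPM, against 107 and 128 CPM. Most of the mural sum came from Pdgfrb, at 138 and 113 CPM in Shh null, against 97.7 and 116 CPM in wild type, while Rgs5, Kcnj8 and Abcc9 were below the filter.

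The list of ridge and surface ectoderm genes, which bears on Jag2 and Notch1, summed to 409 and 440 CPM in Shh null and to 428 and 402 CPM in wild type. Of its 14 tested genes 3 fell and 11 were not called; 8 of the 14 had log2 fold changes above 0. Besides the 3 that fell, limma found 2 higher at an unadjusted p under 0.05, the epithelial genes Krt5 (log2 fold change 0.41, adjusted p = 0.105) and Cdh1 (0.37, adjusted p = 0.22), both named after their values were seen. The genes that fell encode growth factors of the ridge: Fgf4 (0.0415 and 0.137 CPM in Shh null, against 12.3 and 9.81 CPM in wild type), Fgf8 (means of 7.78 ± 3.62 CPM, against 25.8 ± 6.27 CPM, SD, n = 2 each) and Fgf9 (1.58 and 2.61 CPM, against 9.41 and 5.62 CPM). Of the 8 limb mesenchyme genes, a list that bears on Jag1, 4 rose, 1 fell and 3 were not called, with sums of 1630 and 1597 CPM, against 1095 and 1150 CPM. At an unadjusted p under 0.05 limma found 6 of them higher and 1 lower. Twist1, a mesenchymal transcription factor gene, rose 1.62-fold and Prrx2 1.60-fold, while Fgf10, which signals to the ridge, fell 1.91-fold. Macrophage genes summed to 18.7 and 18.0 CPM, against 9.41 and 9.64 CPM, with Cx3cr1 called higher of 4 tested genes. All 4 were higher in limma at an unadjusted p under 0.05 (18.5% of all tested genes in either direction). Neural and neural crest genes summed to 17.9 and 16.3 CPM, against 18.9 and 16.7 CPM, with 5 of 8 under 1 CPM in every library, and somitic genes to 13.3 and 13.6 CPM, against 14.3 and 19.7 CPM. The sums of 6 myogenic genes were 109 and 111 CPM, against 92.4 and 99.0 CPM. Most of this sum came from Met, at 78.8 and 84.0 CPM in Shh null, against 66.3 and 71.6 CPM in wild type. Of the 6 genes 3 were tested and 0 were called by limma. The log2 fold changes of 2 were above 0, and that of Myf5 was below 0 (-0.12). With Shh null 1 left out the limma calls of Fgf8, Fgf9, Fgf10, Twist1, Prrx2 and Cx3cr1 ended (adjusted p = 0.114, 0.232, 0.162, 0.0538, 0.215 and 0.313), and with Shh null 2 left out those of Fgf9, Fgf10, Twist1, Prrx2 and Cx3cr1 (0.0652, 0.081, 0.0749, 0.122 and 0.0707). The sign of their log2 fold changes could not turn in these fits, as the groups did not overlap for these genes. With Shh null 1 and Shh null 2 left out in turn, the log2 fold changes were 0.77 and 0.61 for Twist1 (0.69 with all libraries). They were 0.70 and 0.65 for Prrx2 (0.67), -0.86 and -0.90 for Fgf10 (-0.88), and -1.22 and -2.08 for Fgf8 (-1.65). For Fgf9 they were -1.20 and -1.69 (-1.44), and for Cx3cr1 0.79 and 1.24 (1.02). The part of these cell types in the values of the Notch pathway genes was not tested.

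Genes whose levels ran most like those of the called genes were taken by the smallest root mean square difference of log2(CPM + 1), centred on each gene's mean, over the 4 libraries. For Hey1 these were Ppp2r2c (0.0311), Gbx2 (0.0489) and the Y-linked gene Ddx3y (0.0956). For Jag1 they were Gja3 (0.0228), Srms (0.0516) and Chrdl1 (0.0578). For Jag2 they were Phf15 (0.0043), Arhgap6 (0.0192) and March9 (0.0241). Predicted genes were left out of this search. Of these 9 genes, 4 were called (Ppp2r2c, Gbx2, Ddx3y and Chrdl1), beside 2.48% of all tested genes. They were chosen for their likeness to called genes, so this count is no separate result. With 4 libraries in 2 groups, the measure takes in the difference between the groups as well as the spread within them.

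**Figure D5:**
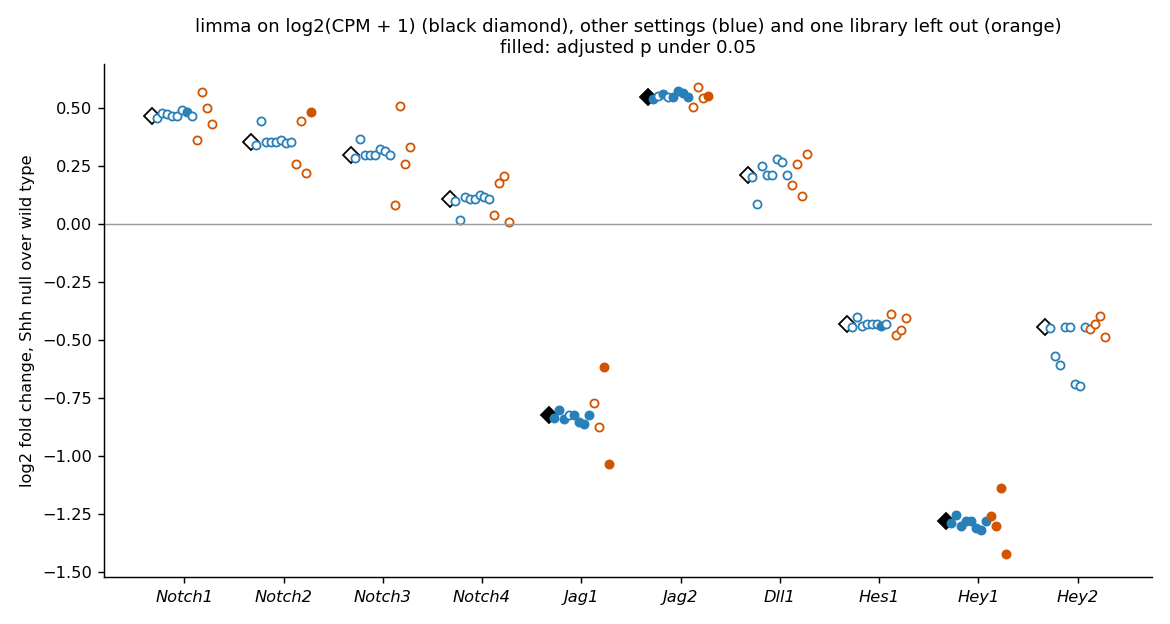
Log2 fold change of Shh null over wild type (vertical axis) of each of the 10 genes in limma on log2(CPM + 1) (black diamonds), with another scaling, pseudocount, filter, test or block (blue) and with 1 library left out (orange); filled symbols passed an adjusted p of 0.05. Hey1 is filled throughout, between -1.42 and -1.14, Jag1 and Jag2 are filled in some settings only, and no gene changes sign. Where the groups do not overlap, leaving out a library cannot turn the sign.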

How the data were processed

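The authors deposited 1 signal value per gene and library, named as normalized counts. Every value was a whole multiple of its column's smallest positive value (100% of values, tolerance 0.001 reads), so whole reads were recovered; the scale matched TMM-scaled CPM recomputed with edgeR. Per the submitters' processing notes, mm10, TopHat2 2.0.9, HTSeq 0.5.4p5, SAMtools and edgeR 3.4.2 were used; the tools' roles, the annotation and whether strand was counted are not given in the sources here, so reads of overlapping or antisense genes may be included. The authors' deposited comparison table gives log2 fold changes, p-values and FDR.

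Groups came from the genotype label. Genes with at least 1 CPM in at least 2 of 4 libraries were tested (13224; 4488 were below the filter) with limma 3.58.1 (R 4.3.3, trend) on log2(CPM + 1), genotype as the only term. edgeR 4.0.16 (quasi-likelihood) and DESeq2 1.42.0 on the recovered reads were alternatives. The limma fit was tested on simulated counts with an assumed spread between libraries. The Notch pathway genes, lists and markers were chosen with earlier results of these data known. Text names all 10 genes; per pathway list the called genes, otherwise the largest change; per marker list up to 3 called genes, with Pecam1, Cdh5, Kdr and Fgf8; Shh; and the 3 genes most like each called gene. Xist, Tle4, Pdgfrb, Dll4, Heyl, Met, Myf5, Efnb2, Cxcr4, Unc5b, Gja4, Gja5 and Nrp1 are named after their values were seen. Coordinates and exon lengths are from GENCODE M21 (same build), promoters from RefSeq.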

Additional observations from a re-analysis of the deposited data

How the results depend on the processing

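The 10 genes kept their direction under all 12 alternatives fixed at the outset, and Hey1 its call. Much of this was fixed beforehand. Where the groups do not overlap, as for 9 of the 10 genes, leaving out a library cannot turn the sign. The other filters and the replicate block leave the log2 fold change as it was. Jag1 was called in 9 of 12 and Jag2 in 7. Of the 10 genes 3 were called, and this became 1 without the filter on low values and 5 with DESeq2; calls over all tested genes, 328, became 170 and 526. With DESeq2 2 further pathway genes were called, against 0. Leaving out each library in turn gave 1 to 4 calls among the 10 genes, 56 to 802 over all genes, 0 to 2 in the pathway lists and 5 to 26 in the marker lists (14 with all libraries). The log2 fold change of Shh ran from -1.71 to -1.24, without a call when either Shh null library was left out. When libraries were left out in turn, the log2 fold changes of Pecam1 (-0.30 to 0.087), Cdh5 (-0.19 to 0.17) and Kdr (-0.22 to 0.38) turned sign, and Cdh5 was at 0.0011 with quantile normalization; none was called. The cause was not tested. With the replicate block, 3 of the 10 genes and 396 genes in all were called. Same-numbered libraries deviated in opposite directions (r = -0.203 across genes), and a crossed pairing, added after seeing this, called 6 of the 10 and 1386 in all. Nothing else in the labels pairs the libraries. Counts of reads limit Hey2 and Dll1 most.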
